A study of Mus musculus with 9 samples.

Results

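The expression of 31 genes of fatty acid oxidation and ketone body formation was followed in mouse liver. The genes were taken by name from a fixed list that covers carnitine transfer, the mitochondrial and the peroxisomal oxidation cycles, electron transfer and ketone bodies. All 31 were among the 19329 gene symbols quantified, and all 31 passed the filter on low counts. Of these, 18 encode mitochondrial proteins, 10 encode peroxisomal proteins, and 3 (*Crat*, *Acad11* and *Eci2*) encode proteins found in both compartments.

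The mice were C57BL/6J, a common inbred strain, and were killed at 11 weeks of age. The control group was kept on chow (n = 5), and the other group received a high-sucrose diet (HSD, n = 4) from 8 weeks of age, for 3 weeks. Each library came from a separate mouse. The labels name no transgene or deletion. The sex of the mice, the composition of the HSD and the feeding state at sampling are not given in the sources used here.

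Fatty acids are shortened by a repeating cycle of dehydrogenation, hydration, a second dehydrogenation and thiolysis. Mitochondria run the cycle on short to long chains, of which the long ones enter as carnitine esters. They hand the electrons to the respiratory chain through the electron transfer flavoprotein, and in liver turn the surplus acetyl-CoA into ketone bodies. Peroxisomes import very long and branched chains through ABC transporters, oxidise them with acyl-CoA oxidases and release shortened chains, partly as carnitine esters. Many of these genes are known targets of the fatty acid receptor PPARA.

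Depth ranged from 12769668 to 25913869 estimated counts on chow and from 14040723 to 24825322 on HSD. The diets were compared over 12091 genes with edgeR's quasi-likelihood test, and an adjusted p (Benjamini-Hochberg) under 0.05 counted as higher or lower. Changes are given as log2FC, the log2 fold change of HSD against chow, with its standard error (SE). For edgeR, the SE and the 95% intervals were derived from the log2FC and the F statistic of the test. Levels within a gene are given as CPM, the share of a library's counts on a common scale after TMM normalization, and levels of different genes are compared as TPM, which is corrected for transcript length. Livers were taken whole, so fewer cells of a type and less RNA per cell cannot be told apart. The chow 1 library stood apart from all others, with a summed TPM over 9 acute-phase genes of 86756. The remaining livers had 7996 to 12219 on chow and 9075 to 10377 on HSD. The summed TPM of 10 hepatocyte markers was 52183 in chow 1, between 75452 and 107591 elsewhere on chow and between 85796 and 110978 on HSD. Of the 10, *Serpina1a* was called lower (10%, beside 6.67% of all genes called in either direction) and 9 did not pass. The sum of 8 Kupffer cell and macrophage markers was 111 to 209.7 on chow and 71.4 to 151 on HSD. All 8 had a log2FC below 0 (median -0.59). Of these, 4 had an unadjusted p under 0.05 (edgeR) and 0 passed after adjustment. Over all genes tested, 23.7% had an unadjusted p under 0.05 (edgeR), which also stands beside the marker counts that follow. The sum of 7 stellate cell markers was 77.6 to 125 on chow and 125 to 155 on HSD. Of the 7, 3 had an unadjusted p under 0.05 (edgeR) while 0 passed after adjustment. That of 6 cholangiocyte markers was 24.8 to 58.2 on chow and 46.4 to 69.7 on HSD, with 2 of 5 tested at an unadjusted p under 0.05 and 0 after adjustment. Endothelial markers summed to 77.0 to 111 on chow and 94.9 to 112 on HSD, lymphocyte markers to 0.6002 to 5.30 and 1.65 to 2.91, and red blood cell genes to 231 to 1040 and 217 to 384. Of 5 red blood cell genes tested, 1 was called lower (20%, beside 6.67% of all genes), and of 6 endothelial markers 0 were called. Of 6 adipocyte markers, *Lep* and *Retn* were at 0 in all 9 livers, and all but *Car3* stayed at or under 0.596 TPM. Their sum was 493 to 2003 TPM on chow and 535 to 691 TPM on HSD. Of the 6, only *Car3* could be tested, and it was called lower (log2FC -1.41). The sum is thus nearly all *Car3*, and it is not read as a level of adipocytes. The part of these markers in the results for the oxidation genes was not tested, and counts of calls by compartment and list are given with and without chow 1.

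On HSD, 2 of the 31 genes rose (*Crat* and *Abcd2*), 3 fell (*Pecr*, *Etfb* and *Acaa1a*), and 26 did not pass the test. Of all 12091 genes tested, 6.67% were called in either direction, 3.44% as higher and 3.23% as lower, against 16.1% of the members. Over all genes, 416 were higher and 391 lower. With library totals in place of TMM these were 569 and 254, and with limma on log2(TPM + 1) they were 475 and 101. At an unadjusted p under 0.05 the count was 7 of 31, beside 23.7% of all genes. The diets did not overlap for 3 members, all of them lower on HSD (*Pecr*, *Etfb* and *Acaa1a*), beside 11.3% of all genes in either direction, 5.84% higher and 5.51% lower. The same 5 genes were called without chow 1. Over all genes, the fits without 1 liver gave from 153 higher and 149 lower (without HSD 1) to 475 and 493 (without chow 1).

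By compartment, 1 of 18 mitochondrial genes fell and 0 rose. Of the 10 peroxisomal genes 1 rose and 2 fell, and of the 3 genes of both compartments 1 rose. The shares called were 5.56%, 30% and 33.3% in this order, beside 6.67% of all genes. The median log2FC was -0.08 for the mitochondrial genes, -0.12 for the peroxisomal genes and 0.13 for the genes of both compartments, beside 0.00 over all genes tested. Without chow 1 these medians were -0.09, -0.18 and 0.09. On the log2(TPM + 1) scale, where the median of all genes was itself shifted to 0.14, the mitochondrial and peroxisomal medians were 0.11 and 0.02, and there 0 members were called lower, against 3 when the TPM values were first scaled by TMM. The mitochondrial fold changes lay between -0.44 and 0.24 on the log2 scale, and the peroxisomal ones between -0.59 and 1.79. The absolute log2FC had a median of 0.13 in the mitochondrial group, 0.33 in the peroxisomal group and 0.19 over all genes tested. The median SE was 0.11 for the mitochondrial and 0.16 for the peroxisomal genes. Without chow 1 the median SE was 0.10 and 0.11, and the median absolute log2FC 0.16 and 0.36.

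**Figure D1:**
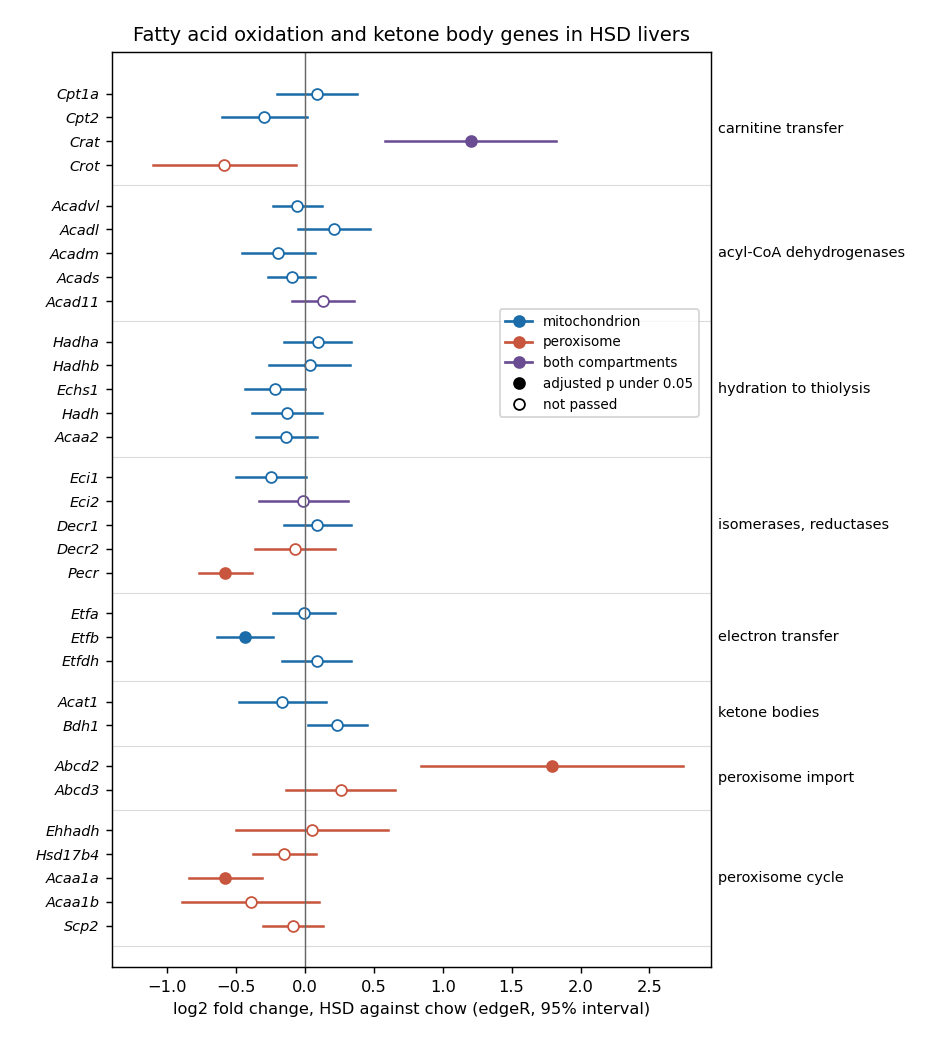
Log2 fold change of each gene, HSD against chow, with its 95% interval derived from the edgeR test (5 chow and 4 HSD livers), coloured by compartment and ordered by role. The filled points are *Crat* and *Abcd2* to the right of 0 and *Pecr*, *Etfb* and *Acaa1a* to the left, and the intervals of the mitochondrial genes other than *Etfb* and *Bdh1* cross 0.

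In carnitine transfer, the gene of the short-chain enzyme rose and the genes of the long-chain and medium-chain enzymes did not pass the test. *Crat* (chr2:30400471-30415813, GRCm38) encodes carnitine acetyltransferase, which moves acetyl and other short acyl groups between CoA and carnitine. Its level was 33.2, 29.5, 46.2, 23.3 and 22.6 CPM in chow livers 1 to 5 and 84.3, 99.9, 31.9 and 69.1 CPM in HSD livers 1 to 4. Of the HSD livers, 3 stood above every chow liver, while HSD 3 lay within the chow range. The means were 30.98 ± 9.58 CPM on chow (SD, n = 5) and 71.3 ± 29.1 CPM on HSD (SD, n = 4). *Crat* rose by a log2FC of 1.203 (SE 0.29, edgeR adjusted p = 0.0292). The call was kept in 3 of the 9 fits that left out 1 liver. It was lost without chow 2, chow 4, chow 5, HSD 1, HSD 2 or HSD 4, and the largest adjusted p from edgeR among these fits was 0.0894.

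*Crot*, the peroxisomal carnitine octanoyltransferase that exports medium chains, was the most abundant gene of this group on chow, at 185 ± 56.4 TPM (SD, n = 5) against 146 ± 27.5 TPM for *Cpt1a*. It stood at 438, 370.3, 690.3, 384 and 341 CPM in the chow livers and at 341, 403, 203 and 237 CPM in the HSD livers. Chow 3 was far above the rest, HSD 3 and HSD 4 were the lowest, and the diets overlapped. Its log2FC of -0.59 (SE 0.24) did not pass (edgeR adjusted p = 0.159). *Cpt1a*, the malonyl-CoA-sensitive carnitine palmitoyltransferase of the outer mitochondrial membrane and the known control point of entry, averaged 516 ± 67.5 CPM on chow and 546 ± 87.3 CPM on HSD. Its 95% interval ran from a change of -13.3% to one of 29.6%. *Cpt2*, which rebuilds the CoA ester inside the mitochondrion, had a log2FC of -0.30 (SE 0.14) and did not pass either.

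The acyl-CoA dehydrogenases, which open each mitochondrial cycle, showed small differences. None of the 5 genes passed the test, and their log2FC values lay between -0.19 (*Acadm*, medium chains) and 0.21 (*Acadl*, long chains). *Acadvl*, the very-long-chain enzyme and the most abundant of the group at 223 ± 17.1 TPM on chow, was 368, 381, 366, 354 and 379.6 CPM in the chow livers and 371, 368, 335 and 349 CPM in the HSD livers. All 9 livers lay in 1 narrow range, and the 95% interval of the change was -15.1% to 8.85%. Reads of *Acadvl* can be shared with the neighbouring *Dvl2*, since 33.2% of its 31-base sequences also occur there. *Acadl* ran at 113, 143, 146, 145 and 159 CPM on chow and at 159.7, 194, 137 and 162 CPM on HSD. Chow 1 was the lowest and HSD 2 the highest, the diets overlapped, and the adjusted p from edgeR was 0.321. *Acads*, the short-chain enzyme, was the steadiest of the 31 genes among chow livers, with a coefficient of variation of 1.78%, and had a log2FC of -0.10 (SE 0.08). *Acad11*, which acts on long chains in both compartments, had one of 0.13 (SE 0.10).

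From hydration to thiolysis, 0 of the 5 mitochondrial genes passed, with log2FC values from -0.22 to 0.09. *Acaa2*, the mitochondrial thiolase that releases acetyl-CoA, ranked 2 among the 31 genes on chow, at 692 ± 101 TPM, and averaged 703 ± 46.2 TPM on HSD. In CPM it stood at 675, 830.0, 738, 777 and 819.6 in the chow livers and at 685, 771, 632 and 708 in the HSD livers. The diets overlapped, and chow 1 lay among the HSD livers. *Echs1*, the short-chain enoyl-CoA hydratase, was 173, 215, 171, 197 and 212 CPM on chow and 150.2, 184, 167 and 164 CPM on HSD. All HSD livers but HSD 2 lay below every chow liver. The log2FC of *Echs1* was -0.22 (SE 0.10, edgeR adjusted p = 0.215). *Hadh*, the 3-hydroxyacyl-CoA dehydrogenase of shorter chains, had a log2FC of -0.13 (SE 0.12).

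*Hadha* and *Hadhb* encode the 2 subunits of the trifunctional protein, which carries out the last steps of the cycle on long chains. They had log2FC values of 0.09 (SE 0.11) and 0.03 (SE 0.13). Of the 31-base sequences of *Hadhb*, 23.7% also occur in other genes, with 19.5% in *Gm13910*, so its counts are less certain. Of 11 ratios between partner genes that were computed, the ratio of *Hadhb* to *Hadha* varied least over the 9 livers. As log2 ratios of counts it ran from -0.84 to -0.49 on chow and from -0.68 to -0.62 on HSD, with an SD of 0.10 over all livers. Chow 1 gave the value of -0.84, and the other 8 livers lay between -0.68 and -0.49. The pair is divergent. In RefSeq the start sites are 273 bases apart on chromosome 5 (GRCm38.p6), so the promoter windows of the 2 genes (250 bases before to 50 bases after the start) share 228 bases. The 250 bases before the *Hadha* start (chr5:30154981-30155230, minus strand) are shown because the ratio of the pair varied least, and the bases that also lie in the *Hadhb* window are in capitals.
Hadha: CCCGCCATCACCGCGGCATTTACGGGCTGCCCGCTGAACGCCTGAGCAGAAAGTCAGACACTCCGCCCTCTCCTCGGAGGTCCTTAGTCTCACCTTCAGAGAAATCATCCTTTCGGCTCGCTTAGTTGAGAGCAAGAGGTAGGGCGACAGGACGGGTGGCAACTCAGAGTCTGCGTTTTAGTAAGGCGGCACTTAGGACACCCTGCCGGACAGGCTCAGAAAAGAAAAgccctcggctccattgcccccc

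Among the isomerases and reductases, which prepare unsaturated chains for the cycle, the peroxisomal trans-2-enoyl-CoA reductase fell and the other 4 genes did not pass. *Pecr* (chr1:72259167-72284314, GRCm38) encodes this reductase, which saturates a double bond next to the CoA ester and also serves chain elongation. It was 141, 164, 139, 167 and 167 CPM in the chow livers and 103, 98.9, 108 and 107 CPM in the HSD livers. The diets were fully apart, and the HSD livers lay within 10 CPM of each other. The means were 156 ± 14.2 CPM on chow and 104 ± 4.02 CPM on HSD. *Pecr* fell by 0.58 on the log2 scale (SE 0.09, edgeR adjusted p = 0.00434), with a 95% interval of -41.4% to -23.4%. This was the smallest adjusted p among the 31 genes, and *Pecr* passed in each of the 9 fits that left out 1 liver. An antisense gene, *D230017M19Rik*, holds 9.53% of its 31-base sequences. The 250 bases before its start (chr1:72284322-72284571, minus strand, GRCm38.p6, RefSeq) are shown because *Pecr* was called in each of those fits, and they hold no match to the motifs described for *Etfa*.
Pecr: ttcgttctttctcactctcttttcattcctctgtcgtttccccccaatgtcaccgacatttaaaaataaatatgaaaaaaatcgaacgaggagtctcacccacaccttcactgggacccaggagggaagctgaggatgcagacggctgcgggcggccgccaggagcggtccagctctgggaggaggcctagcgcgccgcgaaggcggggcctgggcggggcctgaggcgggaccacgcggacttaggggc

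*Eci2*, the enoyl-CoA isomerase found in both compartments, was the most abundant gene of this group over the 9 livers, at 191 ± 31.7 TPM on chow and 217 ± 46.0 TPM on HSD. It stood at 183, 152, 215, 179 and 182 CPM in the chow livers and at 200.4, 226, 132 and 163 CPM in the HSD livers. The highest and the lowest values both came from HSD livers. The change was not detectable within an interval of -20.9% to 24.0%. Its mitochondrial relative *Eci1* had a log2FC of -0.25 (SE 0.12, edgeR adjusted p = 0.220). The 2,4-dienoyl-CoA reductases, mitochondrial *Decr1* and peroxisomal *Decr2*, had log2FC values of 0.09 (SE 0.11) and -0.07 (SE 0.13).

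Of the electron transfer genes, 1 subunit of the flavoprotein fell while its partner and the acceptor did not pass. *Etfb* (chr7:43444083-43457800, GRCm38) encodes the beta subunit of the electron transfer flavoprotein, which collects electrons from the acyl-CoA dehydrogenases. Its level was 224, 234, 222, 193 and 212 CPM on chow and 152, 176, 143 and 168 CPM on HSD. Every HSD liver lay below every chow liver. *Etfb* averaged 217 ± 15.2 CPM on chow and 160.0 ± 14.997 CPM on HSD and fell by 0.44 on the log2 scale (SE 0.09, edgeR adjusted p = 0.0181). The call was lost without HSD 1, HSD 3 or HSD 4, with adjusted p values from edgeR of up to 0.0719. *Etfa*, the alpha subunit that binds beta in a pair, was 187, 249, 235, 225 and 246 CPM on chow and 220.1, 249, 205 and 234 CPM on HSD. The diets overlapped for *Etfa*, and the 95% interval of its change was -15.1% to 16.3%. *Etfdh*, the dehydrogenase that passes the electrons to ubiquinone, had a log2FC of 0.08 (SE 0.12).

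The ratio of *Etfb* to *Etfa*, as log2 of counts, was 0.26, -0.09, -0.09, -0.22 and -0.21 in the chow livers and -0.53, -0.50, -0.52 and -0.48 in the HSD livers. The 2 diets were apart, and the HSD livers lay within a narrow band (SD 0.02). The SD on chow was 0.19, and 0.07 without chow 1. The ratio of *Etfb* to *Etfdh* was apart as well, at -0.17 to 0.30 on chow and -0.54 to -0.28 on HSD. These ratios were chosen with the values known and are given without a test. In the annotation, 49.9% of the 31-base sequences of *Etfb* also occur in other genes, 47.3% of its sequences in the overlapping *Gm45233*, which is not analysed here. How reads were divided between the 2 was not tested. *Etfb* was the most abundant of the 3 genes, at 447 ± 27.0 TPM on chow and 374 ± 28.9 TPM on HSD, against 232 ± 37.8 and 256 ± 15.4 TPM for *Etfa*.

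The sequences before the starts of these partners are shown because their levels parted between the diets. Promoter windows were searched on both strands for AGGTCA, the core hexamer bound by many nuclear receptors, and for the direct repeat of AGGTCA with 1 base between the copies, which PPARA with its partner RXR is known to bind. The hexamer lies within the repeat, so the searches overlap. Of the 31 genes, 25 had a window in the RefSeq table, with 27 windows in all. *Crat* and *Abcd2*, the 2 members that rose, had none and were not searched. The hexamer lay in 5 of the 27 windows (*Acadm*, *Acadvl*, *Cpt1a*, *Echs1* and *Scp2*), beside 16.3% of all 32851 windows. The exact repeat was found in 0 member windows and in 0.0396% of all windows. With up to 2 mismatches it was found in 2 of the 27 windows, those of *Echs1* and *Etfa*, beside 3.86% of all windows. The match before *Etfa* is on the strand opposite to the gene and starts 77 bases before the start site (capitals). No match was found in the *Etfb* window. The windows shown are chr7:43443822-43444071, plus strand, for *Etfb* and chr9:55512244-55512493, minus strand, for *Etfa* (GRCm38.p6, RefSeq).
Etfb: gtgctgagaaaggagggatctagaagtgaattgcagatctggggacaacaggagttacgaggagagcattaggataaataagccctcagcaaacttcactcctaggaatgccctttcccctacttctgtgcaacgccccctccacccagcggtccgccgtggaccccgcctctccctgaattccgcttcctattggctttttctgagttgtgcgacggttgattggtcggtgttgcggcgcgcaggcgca
Etfa: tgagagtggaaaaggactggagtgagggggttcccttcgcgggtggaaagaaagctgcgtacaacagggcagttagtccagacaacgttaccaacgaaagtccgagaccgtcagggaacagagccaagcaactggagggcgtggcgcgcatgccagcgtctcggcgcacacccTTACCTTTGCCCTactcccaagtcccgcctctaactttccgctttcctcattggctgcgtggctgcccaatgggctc

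The ketone body genes did not pass the test. *Bdh1*, which interconverts acetoacetate and beta-hydroxybutyrate, was 157, 174, 185, 177 and 176 CPM on chow and 182, 237, 187 and 212 CPM on HSD. Of the HSD livers, 3 lay above every chow liver, and HSD 1 lay just below chow 3. The log2FC of 0.24 (SE 0.10) had an unadjusted p of 0.0323 and an adjusted p of 0.166 from edgeR, which did not pass. *Acat1*, the mitochondrial thiolase that joins acetyl-CoA units into acetoacetyl-CoA, averaged 271 ± 45.1 CPM on chow and 242 ± 39.98 CPM on HSD, with a log2FC of -0.17 (SE 0.15).

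Of the peroxisomal importers, the minor one rose. *Abcd2* (chr15:91145871-91191799, GRCm38) encodes a transporter subunit for very long, often polyunsaturated acyl-CoA. It stood at 1.29, 9.81, 3.95, 4.91 and 2.65 CPM in the chow livers and at 9.53, 24.5, 18.9 and 10.7 CPM in the HSD livers. All HSD livers lay above all chow livers but chow 2, which exceeded HSD 1 by a little. Means of 4.52 ± 3.25 CPM on chow and 15.9 ± 7.06 CPM on HSD gave a log2FC of 1.79 (SE 0.44, edgeR adjusted p = 0.0324). *Abcd2* was the least abundant of the 31 genes, at 1.04 ± 0.721 TPM on chow and 4.08 ± 1.70 TPM on HSD, and its values rest on 20 to 498 counts per liver. The call was kept in 3 of the 9 fits that left out 1 liver. It was lost without chow 3, chow 4, chow 5, HSD 2, HSD 3 or HSD 4, with adjusted p values from edgeR of up to 0.0922. *Abcd3*, the abundant importer of branched and other long chains, was 303, 524, 509, 650.1 and 592 CPM on chow and 652, 671, 538 and 606 CPM on HSD. Chow 1 was far below all other livers, and the rest overlapped. *Abcd3* did not pass (log2FC 0.26, SE 0.18, and 0.11 without chow 1).

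**Figure D2:**
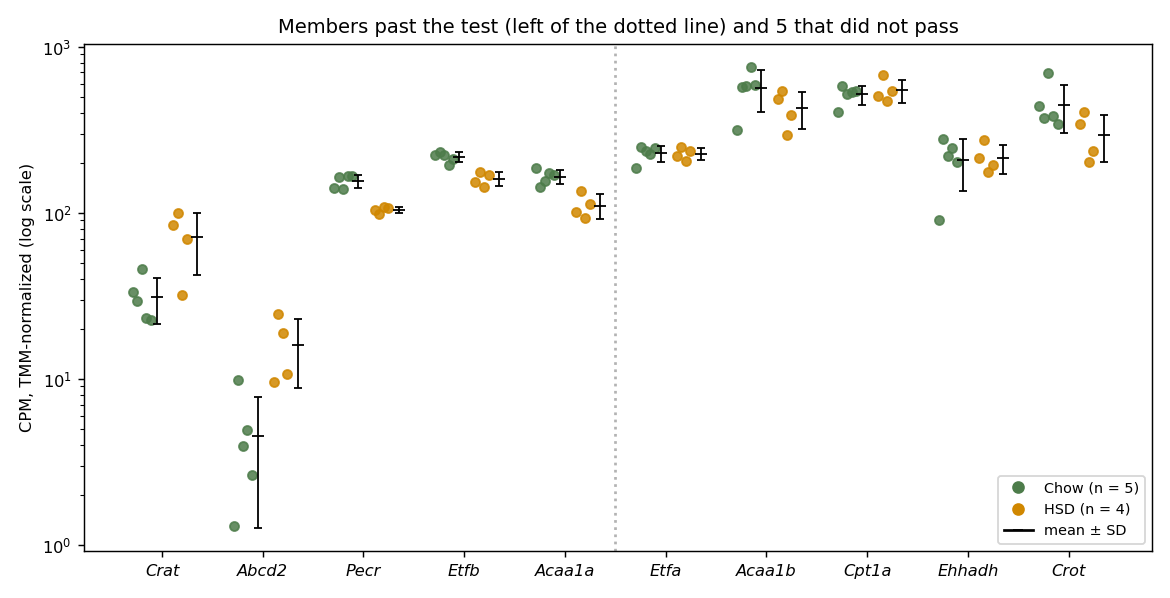
TMM-normalized CPM (log scale) of 10 genes in each liver (5 chow in green, 4 HSD in orange), with the mean and SD beside each group. The diets are apart for *Pecr*, *Etfb* and *Acaa1a*, 1 HSD liver of *Crat* falls among the chow livers, and the low chow point of *Ehhadh*, at 90.0 CPM, is chow 1.

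In the peroxisomal cycle, 1 of 2 closely related thiolase genes was called lower and the other 4 genes of the group did not pass. *Acaa1a* (chr9:119339676-119350299, GRCm38) encodes a 3-ketoacyl-CoA thiolase. Its level was 186, 142, 156, 173 and 169 CPM on chow and 101, 136, 92.9 and 112 CPM on HSD. The diets did not overlap, although HSD 2 came close to chow 2. *Acaa1a* averaged 165 ± 16.8 CPM on chow and 111 ± 18.6 CPM on HSD and fell by 0.58 on the log2 scale (SE 0.12, edgeR adjusted p = 0.0168). The call was lost without HSD 1, HSD 3 or HSD 4 (adjusted p up to 0.0678 from edgeR).

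Its paralog *Acaa1b*, which stood at 459 ± 160.0 TPM on chow against 123 ± 15.03 TPM for *Acaa1a*, was more variable. It was 314, 573, 578, 754 and 590.2 CPM in the chow livers and 485, 541, 295 and 389.7 CPM in the HSD livers. Chow 1 and HSD 3 were the lowest, and the other chow livers lay above all HSD livers. The log2FC of *Acaa1b* was -0.39 (SE 0.23, edgeR adjusted p = 0.326), and -0.55 (SE 0.17, adjusted p = 0.0692) without chow 1. In that fit *Acaa1a* had a log2FC of -0.54 (SE 0.12, edgeR adjusted p = 0.0175). The 2 paralogs thus had like estimates there, and the difference between them lies in the call. The 2 genes share sequence, with 40.01% of the 31-base sequences of *Acaa1b* found in *Acaa1a* and 16.9% of those of *Acaa1a* found in *Acaa1b*, so their counts are uncertain. When the counts of both were added, the sum did not pass. The log2 ratio of *Acaa1a* to *Acaa1b* was -0.75 in chow 1, between -2.12 and -1.81 elsewhere on chow and between -2.26 and -1.67 on HSD. The 250 bases before the RefSeq start of *Acaa1a* (chr9:119341044-119341293, plus strand, GRCm38.p6) are shown because *Acaa1a* was the member of the cycle that was called. In GENCODE the gene starts at chr9:119339676, so these bases lie within the gene as placed there. The RefSeq window holds no AGGTCA, and the repeat was not found in it with up to 2 mismatches.
Acaa1a: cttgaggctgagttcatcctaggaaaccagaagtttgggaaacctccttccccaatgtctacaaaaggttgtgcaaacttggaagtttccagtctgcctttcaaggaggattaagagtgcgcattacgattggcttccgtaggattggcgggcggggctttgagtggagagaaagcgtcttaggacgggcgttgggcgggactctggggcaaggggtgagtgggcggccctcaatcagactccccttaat

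*Scp2* encodes a protein made both as a thiolase for branched and bile acid side chains and as a sterol carrier. At 2939 ± 209 TPM on chow and 2998 ± 133 TPM on HSD it was the most abundant of the 31 genes. In CPM it stood at 3716, 3918, 4117, 3518 and 3818 on chow and at 3492, 3720.5, 3417 and 3729.7 on HSD. The diets overlapped, and the 95% interval of the change was -19.1% to 9.38%. A pseudogene, *Scp2-ps2*, holds 33.4% of its 31-base sequences. *Ehhadh*, the bifunctional enzyme of straight chains, was 90.0, 277, 219.9, 245 and 203 CPM on chow and 214, 273, 175 and 195 CPM on HSD. Chow 1 lay far below the other 8 livers, which overlapped. Its log2FC was 0.05 (SE 0.25) with chow 1 and -0.15 (SE 0.14) without it. *Hsd17b4*, the bifunctional enzyme of branched chains, had a log2FC of -0.15 (SE 0.10).

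Apart from the diets, single livers were low or high for many of the 31 genes. Chow 1 was the lowest chow liver for 20 of them (13 mitochondrial and 6 peroxisomal), or 64.5%, beside 26.6% of all genes tested, and the lowest of all 9 livers for 15. Some members went the other way in chow 1, where the log2 CPM minus the mean over livers was 0.44 for *Acaa1a*, 0.29 for *Crot* and 0.24 for *Etfb*. HSD 2 was the highest HSD liver for 28 genes (90.3%, beside 25.4% of all genes), although it was the lowest for *Pecr*. HSD 3 was the lowest HSD liver for 24 (77.4%, beside 27.1%). As a mean of centred log2 CPM over the 31 genes, chow 1 stood at -0.26 and the remaining chow livers between 0.03 and 0.11. The HSD livers stood at -0.01, 0.26, -0.20 and -0.05. Apart from HSD 2, they lay below the 4 chow livers other than chow 1. This mean runs over genes that rose and genes that fell, so it gives no comparison of the diets. The mitochondrial mean was -0.17 in chow 1 and between 0.04 and 0.10 elsewhere on chow, and on HSD it was -0.07, 0.20, -0.21 and -0.07. The peroxisomal mean was -0.45 in chow 1, between 0.00 and 0.17 elsewhere on chow and between -0.16 and 0.28 on HSD. In chow 1 the acute-phase list stood at 4.35 on the same scale, against -0.85 to 0.38 in all other livers. Its part in the low oxidation genes of chow 1 was not tested.

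**Figure D3:**
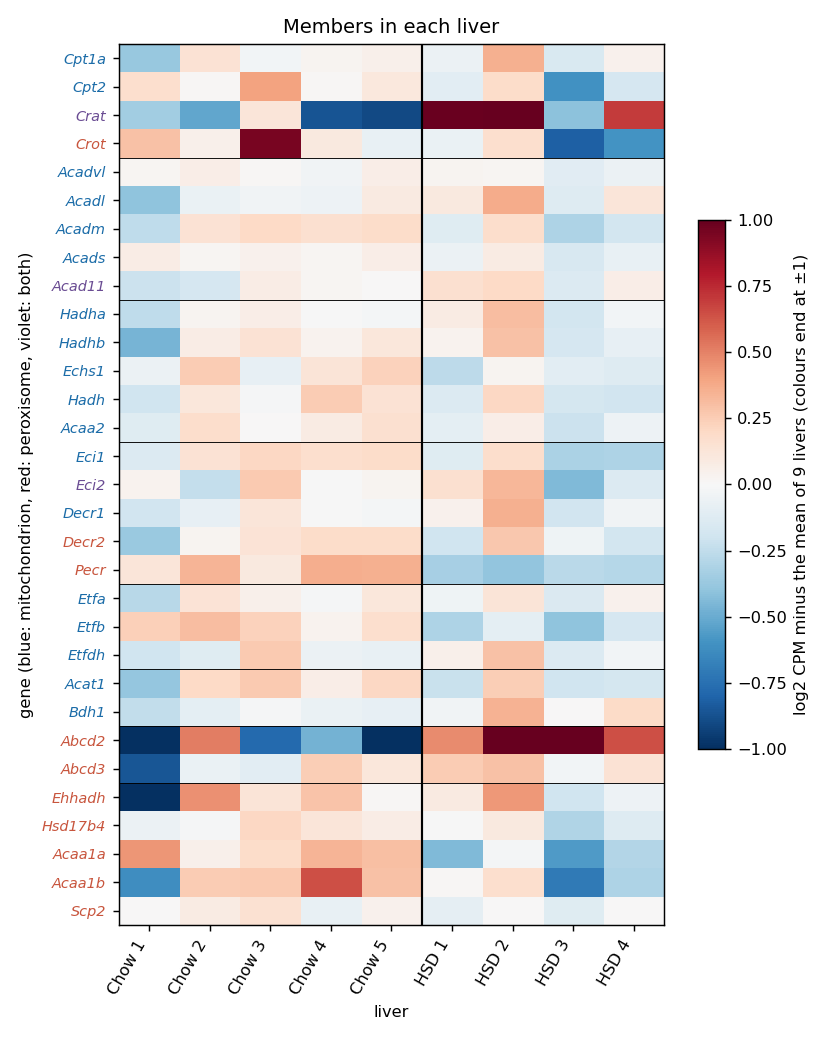
Log2 CPM of each gene in each liver minus the mean of the gene over the 9 livers (colours end at 1 and -1), grouped by role, with gene names coloured by compartment. The chow 1 column is blue for most genes, HSD 2 is red for most, and *Crat*, *Pecr*, *Etfb*, *Abcd2* and *Acaa1a* change across the line between the diets.

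The libraries carry 2 series of labels, each with livers of both diets (4 chow and 2 HSD livers in the first, 1 chow and 2 HSD livers in the second). Within the first series alone, the log2FC values were 1.48 for *Crat* (adjusted p = 0.0432 from edgeR), 1.76 for *Abcd2* (0.227), -0.60 for *Pecr* (0.126), -0.41 for *Etfb* (0.272) and -0.47 for *Acaa1a* (0.279). In the second series, where 1 chow liver allows no test, the differences were 1.05, 2.38, -0.64, -0.45 and -0.72 in the same order. The 5 genes were called on these same livers, so their directions within the series are no separate evidence. Of the 31 members, 13 had opposite signs in the 2 series, among them *Cpt1a*, *Acadl*, *Hadha*, *Hadhb*, *Eci2*, *Abcd3* and *Ehhadh*.

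Partner genes within a pathway step were compared within each liver. The ratios still differed between mice of one diet, and chow 1 stood apart in several. Of 11 pairs, the diets did not overlap in 3, namely *Etfb* to *Etfa*, *Etfb* to *Etfdh*, and *Crat* to *Crot*. Among single genes tested, 11.3% did not overlap, and no share over pairs of other genes was computed. The first 2 of these pairs share *Etfb*, which was apart between the diets on its own, so they largely repeat that result. The third sets *Crat*, which was called higher, against *Crot* (log2FC -0.59). The log2 ratio of *Crat* to *Crot* was -4.04 to -3.65 on chow and -2.67 to -1.78 on HSD. HSD 3, which lay within the chow range for *Crat* alone, had a ratio of -2.67 and so lay above every chow liver. The ratio of *Bdh1* to *Acat1* was -0.75 to -0.31 on chow and -0.35 to -0.09 on HSD, where only chow 1 overlapped with the HSD livers. The ratio of *Ehhadh* to *Hsd17b4* ran from -1.90 to -0.33 on chow (from -0.88 without chow 1) and from -0.72 to -0.46 on HSD. The pairs were chosen with the values known, so these are descriptions without a test.

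**Figure D4:**
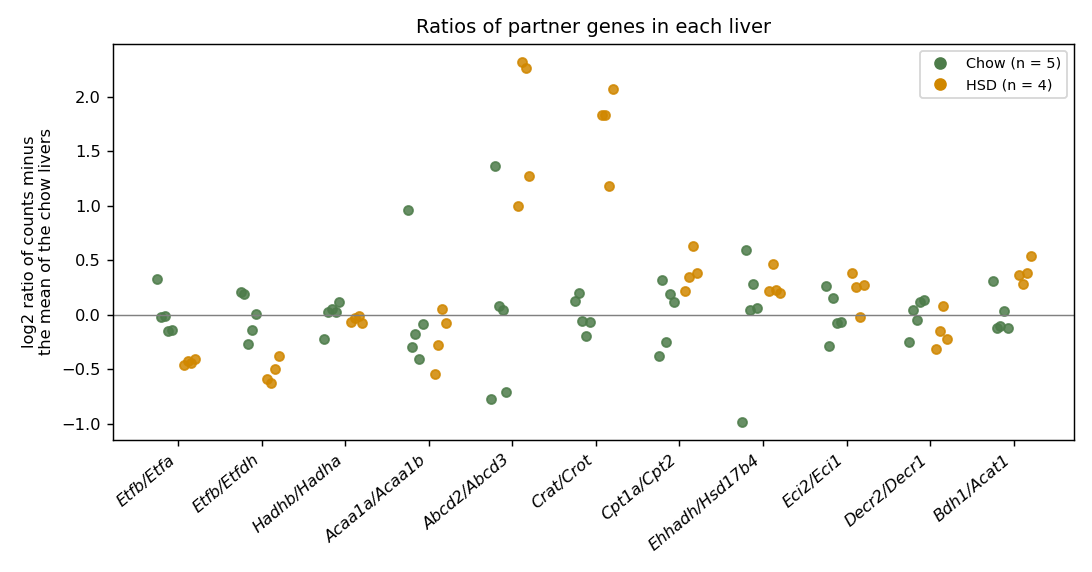
Log2 ratio of the counts of 11 pairs of partner genes in each liver, minus the mean ratio of the 5 chow livers (chow in green, HSD in orange). The HSD points of *Etfb*/*Etfa* lie in a tight group below all chow points, those of *Crat*/*Crot* lie above all chow points, and *Hadhb*/*Hadha* stays close to 0.

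Outside the 31 genes, other genes of peroxisomal oxidation were counted in the same fit. Of 15 tested, 4 fell, 2 rose and 9 did not pass, a share called of 40% beside 6.67% of all genes. Without chow 1 these were 3 lower and 2 higher. The fits without 1 liver gave 1 to 3 lower and 0 to 2 higher in this list. Calls over all genes changed in these fits too, from 153 higher and 149 lower without HSD 1 to 475 and 493 without chow 1. Without chow 3, HSD 1 or HSD 4, 1 gene of the list was lower and 0 were higher. With library totals 1 was lower and 3 were higher, and with limma on log2(TPM + 1) these were 0 and 3. With the replicate block or the label series as a covariate 1 was lower and 1 higher. *Acox2* and *Acox3* encode acyl-CoA oxidases, which open the peroxisomal cycle, *Amacr* a racemase of branched acyl-CoA and *Phyh* the phytanoyl-CoA hydroxylase. *Acox2*, the oxidase of branched chains and bile acid precursors, went from 225 ± 21.7 to 146 ± 13.4 CPM (log2FC -0.63, SE 0.10, edgeR adjusted p = 0.00523), and passed in each of the 9 fits without 1 liver. *Amacr* fell by 0.43 on the log2 scale (SE 0.10, edgeR adjusted p = 0.0324). *Phyh* fell by 0.39 and *Acox3* by 0.38 on the same scale, and these 2 are named after their values were seen. *Amacr* passed in 4 of the 9 fits, *Phyh* in 1 and *Acox3* in 2. *Acot4*, a peroxisomal thioesterase known to act on succinyl-CoA, rose by a log2FC of 0.99 (SE 0.23, edgeR adjusted p = 0.0252). *Acsl5*, a long-chain acyl-CoA synthetase known from mitochondria and endoplasmic reticulum as well, rose by 0.72 (SE 0.20) at an adjusted p of 0.0497 from edgeR. *Acot4* passed in 4 of the 9 fits and *Acsl5* in 2. The list was chosen with results of these data known, and the count is a description. Of 16 peroxisome biogenesis genes, 0 rose and 2 fell (12.5%, beside 6.67% of all genes). *Pex26* fell by 0.64 and *Pex11g* by 0.54 on the log2 scale (adjusted p = 0.00657 and 0.00948 from edgeR). Both passed in each of the 9 fits without 1 liver, chow 1 included.

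The list of other mitochondrial oxidation genes and their neighbouring steps held 17 genes tested, and the 1 that fell was *Nudt7*, which encodes a peroxisomal CoA diphosphatase. It went from 739 ± 50.5 to 573 ± 26.5 CPM (log2FC -0.37, SE 0.09, edgeR adjusted p = 0.0365) and passed in 1 of the 9 fits without 1 liver, the one without chow 1. Of the other 16 genes 0 were called, so the share called in the list was 5.88%, beside 6.67% of all genes. With *Nudt7* counted among the other peroxisomal genes, 5 of 16 were lower there, beside 3.23% of all genes. *Nudt7* was moved with its call known and *Acsl5* was left in place, so this count is no evidence on the compartments. Without chow 1, *Acad10*, *Hsd17b10* and *Hibadh*, which are mitochondrial, were lower as well, so 4 of the 17 were called. These 3 are named after their values were seen. Of all 12002 genes tested in that fit, 475 were higher and 493 lower. Of 6 other ketone body genes tested, *Slc16a1*, a monocarboxylate carrier that moves lactate and ketone bodies, rose by a log2FC of 0.50 (SE 0.11, edgeR adjusted p = 0.0171). *Slc16a1* lost its call without HSD 1. The other 5 did not pass, so 16.7% of the 6 were called, beside 6.67% of all genes. Without chow 1 *Bdh2* was lower, a gene named after its value was seen.

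Of 17 genes listed as responsive to PPARA, 2 rose and 1 fell (17.6%, beside 6.67% of all genes). *Pdk4*, the kinase that switches off pyruvate dehydrogenase, was 1.16 to 2.31 CPM on chow and 4.67 to 6.76 CPM on HSD (log2FC 1.82, SE 0.23, edgeR adjusted p = 0.00167). *Fgf21*, the hepatic hormone of fasting and sugar intake, went from 0.563 ± 0.270 to 4.52 ± 2.30 CPM (log2FC 2.99, SE 0.40, edgeR adjusted p = 0.00199). Both rest on few counts. Those of *Fgf21* were 4 to 18 per liver on chow and 46 to 160 on HSD, and those of *Pdk4* 18.1 to 48.3 and 94.8 to 156. *Creb3l3*, a transcription factor of the fasted liver, fell by 0.58 on the log2 scale (adjusted p = 0.0314 from edgeR). *Pdk4* and *Fgf21* passed in each of the 9 fits without 1 liver and *Creb3l3* in 4, and the counts without chow 1 were 2 higher and 1 lower. *Ppara* itself was 76.3 to 131 CPM on chow and 91.9 to 137 CPM on HSD and did not pass (log2FC 0.26, SE 0.15). Of 14 regulators of oxidation, 2 rose and 0 fell (14.3%, beside 6.67% of all genes). *Ppargc1a*, a coactivator of mitochondrial genes, rose by a log2FC of 0.93 (SE 0.17, edgeR adjusted p = 0.00955). *Acacb*, which makes the malonyl-CoA that inhibits *Cpt1a*, went from 237 ± 80.8 to 524 ± 124 CPM (log2FC 1.15, SE 0.25, edgeR adjusted p = 0.0197). *Ppargc1a* passed in each of the 9 fits, and *Acacb* in 6, with the call lost without HSD 1, HSD 3 or HSD 4. Without chow 1 the counts were 2 higher and 1 lower, the latter *Ppargc1b*, named after its value was seen.

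**Figure D5:**
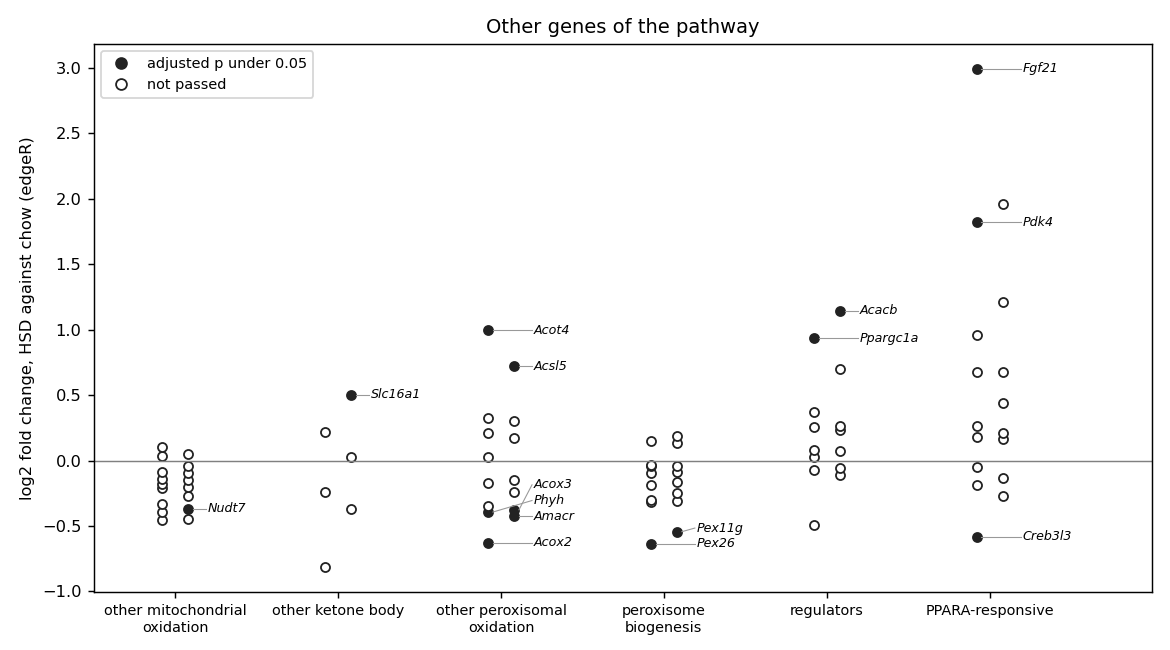
Log2 fold change, HSD against chow, of other genes of the pathway by list, with genes past an adjusted p of 0.05 filled and named. In the peroxisomal oxidation list 4 filled points lie below 0 and 2 above, and in the mitochondrial oxidation list the single filled point is *Nudt7*, at -0.37, which encodes a peroxisomal enzyme.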

How the data were processed

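Liver RNA of 9 C57BL/6J mice was measured, 5 on chow and 4 on HSD, grouped by their labels. Libraries were poly-A-selected and read as pairs of 51 bases, and the authors ran kallisto on GRCm38 (version not stated). The deposited tables hold unscaled estimated counts per gene symbol. They also hold TPM values, which the authors had corrected for transcript length and which summed to between 923061 and 945110 over the symbols listed. How transcripts were summed to symbols is not given. Kallisto divides reads that fit several genes, so near-identical genes can trade counts. Of the counts above 0, 34.1% were whole within 1e-06, and 99.1% of these were even.

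Counts were rounded, filtered with filterByExpr (minimum count 10, minimum total 15), TMM-scaled and compared by edgeR 4.0.16 under R 4.3.3 (quasi-likelihood test, diet as the single factor, 7 residual degrees of freedom, biological coefficient of variation 0.187), with Benjamini-Hochberg adjustment over 12091 genes. The code was tested on simulated data. Log2 CPM used a prior count of 2. Between libraries of the same diet, chi-square per degree of freedom was at least 14.5, so none was a repeat of another. The 4 or 5 mice per diet limit precision.

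The members and lists were chosen with earlier results of these data known. Described in full were genes past the test and, by role, the gene of highest TPM and that of largest change, and in other lists up to 4 genes past the test by change. *Etfa*, *Acaa1b*, *Ehhadh* and *Ppara* were added after their values were seen. Alternatives were DESeq2 1.42.0, limma 3.58.1 voom, other scaling, no filter, limma on log2(TPM + 1) and log2(TPM + 0.1), a replicate block, label series, halved counts, a clock gene covariate (*Arntl* minus *Dbp*), *Acaa1a* and *Acaa1b* added, a threshold of 0.01 and each liver left out. Limma on TPM scaled by TMM was added after seeing the data. Gene positions and shared 31-base sequences are from GENCODE for GRCm38, and promoters from RefSeq (GRCm38.p6). The tables held 0 columns of other samples and 0 rows without a gene name. Some items are not reported here and were left out of the lists before counting.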

Additional observations from a re-analysis of the deposited data

Results flagged for a closer look

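Per diet, 110 groups of 4 or 5 values were looked at (log2 CPM of the 31 genes, group means and partner ratios), and 21 (19.1%) held a liver whose gap to its nearest neighbour passed Dixon's 95% limit, where chance flags about 1 in 20. The groups share livers and genes, so the flags are not independent. Each value is the distance of that liver from the mean of the other livers of its diet on the log2 scale.

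Most flags came from chow 1, the liver with the high acute-phase genes, whose list mean lay 4.66 above the other chow livers. There *Ehhadh* lay at -1.38, *Hadhb* at -0.56, *Decr2* at -0.51, *Acadm* at -0.43, *Eci1* at -0.31 and *Hadha* at -0.27. In the same liver the means of the groups lay at -0.57 for the peroxisomal genes, -0.47 for the peroxisomal cycle, -0.38 for the ketone body genes, -0.33 for all 31 genes and -0.25 for the mitochondrial genes. The ratios of *Acaa1a* to *Acaa1b* (1.203), *Etfb* to *Etfa* (0.41) and *Hadhb* to *Hadha* (-0.28) were flagged in chow 1 as well. Without chow 1 the same 5 genes were called. The part of the acute-phase state in these values was not tested.

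In chow 3, the mean of the carnitine transfer genes lay 0.50 and that of the genes of both compartments 0.42 above the other chow livers. In HSD 2, *Acat1* lay 0.44, *Hadh* 0.37 and the ratio of *Ehhadh* to *Hsd17b4* 0.25 above the other HSD livers. In HSD 1, the acute-phase list lay 0.32 above the other HSD livers.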

How the results depend on the processing

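The counts of genes called depended on the scale and on which livers were included. Over all genes, the fits without 1 liver gave 153 to 475 higher and 149 to 493 lower. Fits without 1 of the livers gave 0 to 2 members higher and 1 to 3 lower, with 0 to 1 mitochondrial member lower, 0 to 1 peroxisomal member higher and 1 to 2 lower, and 0 to 2 other peroxisomal oxidation genes higher and 1 to 3 lower. *Pecr* passed in each of these fits, *Etfb* and *Acaa1a* in 6 of 9, and *Crat* and *Abcd2* in 3 of 9. DESeq2, limma voom, DESeq2 size factors, library totals, an unfiltered table, the label series as a covariate, halved counts and the clock covariate all called the 5 members. Among the other peroxisomal oxidation genes, 1 instead of 2 rose with DESeq2 size factors, 1 instead of 4 fell with library totals, and with the label series as a covariate 1 rose and 1 fell.

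In limma on log2(TPM + 1), log2(TPM + 0.1) and log2(TPM + 1) over all genes, 0 members were lower (mitochondrial 0, peroxisomal 0), as were 0 other peroxisomal oxidation genes. Over all genes 0 members were higher too (peroxisomal 0, other peroxisomal oxidation 0). With TPM scaled by TMM, 1 member was higher, and 2 other peroxisomal oxidation genes were lower and 0 higher. On the log2(TPM + 1) scale the median over all genes shifted to 0.14 and that of the mitochondrial genes to 0.11. In the first label series alone 1 member was higher and 0 lower (mitochondrial 0 lower, peroxisomal 0 either way, other peroxisomal oxidation 0 either way), with fewer livers. At an adjusted p under 0.01, 0 members were higher and 1 lower (peroxisomal 1 lower and 0 higher, mitochondrial 0 lower), and 1 other peroxisomal oxidation gene was lower and 0 higher. With *Acaa1a* and *Acaa1b* added, 1 peroxisomal member was lower. Where no construction of the fit shows it, the cause was not tested.

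The replicate numbers of the labels did not pair the livers (correlations of deviations -0.06 to 0.07, with no label for a shared litter or batch). With the replicate number as a block, 1 member was higher (*Abcd2*) and 1 lower (*Pecr*), with 0 mitochondrial members lower and 1 peroxisomal member lower, and 1 other peroxisomal oxidation gene was lower and 1 higher. The log2 fold change of *Etfa* was 0.023 under the block.

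Over all members and settings, the sign differed from the reported one in 58 values, all of members that did not pass. On the 3 TPM scales the log2 fold changes were 0.11 for *Acadvl*, 0.0117 to 0.0120 for *Acadm*, 0.10 for *Acads*, 0.033 for *Hadh*, 0.035 for *Acaa2*, 0.17 for *Eci2*, 0.10 for *Decr2*, 0.16 for *Etfa*, 0.014 for *Hsd17b4* and 0.031 for *Scp2*. The median of all genes was itself shifted there. With library totals they were 0.013 for *Acadvl*, 0.053 for *Eci2* and 0.0557 for *Etfa*, and with TPM scaled by TMM 0.026 for *Eci2* and 0.014 for *Etfa*. In the first label series they were 0.0052 for *Acadvl*, 0.23 for *Eci2*, 0.040 for *Decr2* and 0.062 for *Etfa*, with the label series as a covariate 0.049 for *Eci2*, and with the clock covariate 0.032 for *Etfa*. Without 1 liver the range was -0.030 to 0.15 for *Cpt1a*, -0.024 to 0.16 for *Decr1*, -0.14 to 0.11 for *Eci2*, -0.15 to 0.17 for *Ehhadh*, -0.080 to 0.037 for *Etfa*, -0.00708 to 0.17 for *Etfdh*, -0.00341 to 0.16 for *Hadha* and -0.068 to 0.094 for *Hadhb*.

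With 4 or 5 mice per diet, changes near the size of their error, as for most mitochondrial genes, were not detectable at this spread between mice. With counts halved the same 5 members were called. *Abcd2* rests on few counts, and so do *Pdk4* and *Fgf21* outside the members. *Acaa1a*, *Acaa1b*, *Etfb*, *Acadvl*, *Scp2* and *Hadhb* rest in part on sequences shared with other genes.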
